A study of Mus musculus with 6 samples.

Results

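Integrins are cell-surface receptors built from 1 α and 1 β subunit that tie cells to other cells and to the extracellular matrix. The 10 integrin subunit genes described here were taken by gene symbol from a table of 55453 genes: Itgal, Itgam, Itgax and Itgb2, which encode the leukocyte β2 integrins; Itgb1 with Itga4, Itga5 and Itga6, which encode subunits of β1 integrins; and Itgav with Itgb5, which encode the αvβ5 integrin. The rule is a list of symbols and names no measured value, but the list was chosen with earlier results of these data known. All 10 were expressed highly enough to be tested among 13680 genes.

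RNA-Seq had been done on bone marrow-derived macrophages (BMDM), which are macrophages grown from bone marrow in culture, from C57BL/6 mice. The 3 PP2Ac KO libraries came from LysMcre PP2Ac fl/fl mice, in which cre recombinase, driven by the lysozyme 2 (LysM) promoter of myeloid cells, removes exon 1 of Ppp2ca, the gene of the catalytic subunit of the phosphatase PP2A. The 3 PP2Ac WT libraries came from wild-type mice, which the study bought as C57BL/6 from a commercial breeder, whereas the LysMcre PP2Ac fl/fl mice came from a university. The study describes BMDM treated with cGAMP, the cyclic dinucleotide that activates STING, for its RNA-Seq, while the labels give no treatment, age or sex. Mice of both sexes, 6 to 10 weeks old, were used across the study. In these libraries Xist, which female cells express, had 0 to 3 counts each. The Y-linked gene Ddx3y had 2070 to 3404 counts in each, so all libraries read as male. Cell experiments are stated to have been run in biological triplicate, and it is not said whether these were separate mice or separate cultures, so the p-values measure the spread between such triplicates. The comparison answers how the transcriptome differs between BMDM of these genotypes. The loss of PP2Ac, the presence of cre and the source of the mice cannot be told apart in it.

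The β2 subunit pairs with αL (LFA-1), αM (Mac-1, complement receptor 3), αX (complement receptor 4) or αD, and the pairs carry leukocyte adhesion to ICAMs and the uptake of complement-coated particles. The β1 subunit pairs with α4 (VLA-4, a receptor for VCAM-1 and fibronectin), α5 (the classical fibronectin receptor) and α6 (a laminin receptor). The αvβ5 pair binds vitronectin and the bridging protein MFG-E8 and takes part in the clearance of apoptotic cells. Inside the cell, talin and kindlin bind the β tails to switch the receptors on.

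Reads on Ppp2ca numbered 47, 33 and 38 in PP2Ac KO and 10654, 8913 and 8279 in PP2Ac WT, so the targeted gene matched the genotype label in every library. Library totals ran from 35257156 to 47390899 counts, and 3 counts in a library correspond to between 0.0604 and 0.0909 CPM, the count relative to the TMM-scaled library total. The macrophage markers Adgre1, Cd68, Csf1r, Fcgr1, Mertk and Cd14 each had at least 4404 counts in every library. The macrophage list summed to 8509 to 8624 CPM across PP2Ac KO and 7166 to 7697 CPM across PP2Ac WT. Fcgr1 (1.63-fold) and Mertk (1.21-fold) were higher among its 7 genes, and 5 of 7 were higher with the replicate number as a block. Of all genes tested, 18.1% were higher, and 24.4% with that block. Lyz2 lay between 260 and 421 counts. Whether reads shared with its near copy Lyz1 lowered these counts was not tested. Of markers of other cells, Ly6g (neutrophils) and Cd8a (T cells) were at 0 in all libraries. Fibroblast markers were present and lower in PP2Ac KO, with a summed level of 24.9 to 37.4 CPM against 80.8 to 124.9 CPM across PP2Ac WT. In these bulk samples, fewer cells of a type and less RNA per cell cannot be told apart.

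Promoter sequence is shown for the members with the clearest differences for which RefSeq (GRCm38.p6) gave an entry: Itga4 and Itga5, whose RNA rose in PP2Ac KO, and Itgax, whose RNA fell. Each run holds the 250 bases up to the RefSeq start of the gene, written 5′ to 3′ on the gene's own strand, with matches to the GC box GGGCGG on either strand in capitals. The windows are chr2:79255176-79255425 (forward strand) for Itga4, chr15:103366792-103367041 (reverse strand) for Itga5 and chr7:128129300-128129549 (forward strand) for Itgax.
Itga4: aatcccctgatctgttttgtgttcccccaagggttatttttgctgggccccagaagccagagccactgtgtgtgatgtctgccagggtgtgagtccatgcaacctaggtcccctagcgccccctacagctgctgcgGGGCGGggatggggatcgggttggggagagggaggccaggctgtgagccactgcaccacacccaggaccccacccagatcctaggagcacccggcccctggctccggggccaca
Itga5: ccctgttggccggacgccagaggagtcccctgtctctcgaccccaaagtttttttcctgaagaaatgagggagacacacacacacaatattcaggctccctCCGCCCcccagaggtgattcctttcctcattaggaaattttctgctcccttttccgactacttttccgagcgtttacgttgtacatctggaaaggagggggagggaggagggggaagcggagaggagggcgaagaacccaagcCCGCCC
Itgax: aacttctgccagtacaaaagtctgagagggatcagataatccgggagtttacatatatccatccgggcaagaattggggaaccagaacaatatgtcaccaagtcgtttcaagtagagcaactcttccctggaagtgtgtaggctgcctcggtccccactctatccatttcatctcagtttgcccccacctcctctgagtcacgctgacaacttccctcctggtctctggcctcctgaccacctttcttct
A GC box, the recognition sequence of Sp1-type factors, stood once in the Itga4 window, in 2 places in the Itga5 window and nowhere in the Itgax window. It did not follow the direction of change over the 7 members with an entry, since Itgb5, which fell, held 3 matches, Itgb1 and Itgam, which were not called, held 1 each, and Itgav held none. Of all 32851 promoter windows of this length, 32.7% held at least 1 match. The core bound by PU.1, the lineage factor of macrophages (GAGGAA on either strand, 23.3% of windows), occurred in 2 places in the windows of Itgam and Itgav, once in those of Itgb1 and Itga5, and not in those of Itga4, Itgax and Itgb5. The core of the interferon-stimulated response element (GAAA, any 2 bases, GAAA, on either strand), held by 2.98% of windows, was in none of the 7 windows. These matches describe letters in short windows and say nothing about binding.

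Of the 10 subunit genes, 3 rose in PP2Ac KO (Itgal, Itga4 and Itga5), 3 fell (Itgax, Itgb2 and Itgb5) and 4 were not called (Itgam, Itgb1, Itga6 and Itgav). A call is an adjusted p under 0.05 in edgeR's quasi-likelihood test, and over all genes tested it was reached upward by 18.1% and downward by 19.0%. The median log2 fold change of the 10 was 0.01, against -0.02 over all genes tested. The libraries of the genotypes did not overlap for 6 of the 10, where 50.9% of all genes tested had such a separation. Under the study's threshold, a log2 fold change over 1 with an adjusted p under 0.01, Itgal alone counted as higher and no member as lower, with 3.36% and 2.99% of all genes passing upward and downward. Itgal was close to that limit. Its log2 fold change was 0.95 with upper-quartile scaling, 0.90 without PP2Ac KO replicate 1, 0.9991 without PP2Ac WT replicate 2 and 0.93 without PP2Ac WT replicate 3, which leaves no member past it, while Itga4 passed as well without PP2Ac KO replicate 2 (1.003) or PP2Ac WT replicate 1 (1.14). With the replicate number as a block, 4 rose and 3 fell, where 24.4% and 26.4% of all genes did. The count of members that fell dropped from 3 to 1 without PP2Ac KO replicate 2 or without PP2Ac WT replicate 2, leaving Itgax.

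**Figure D1:**
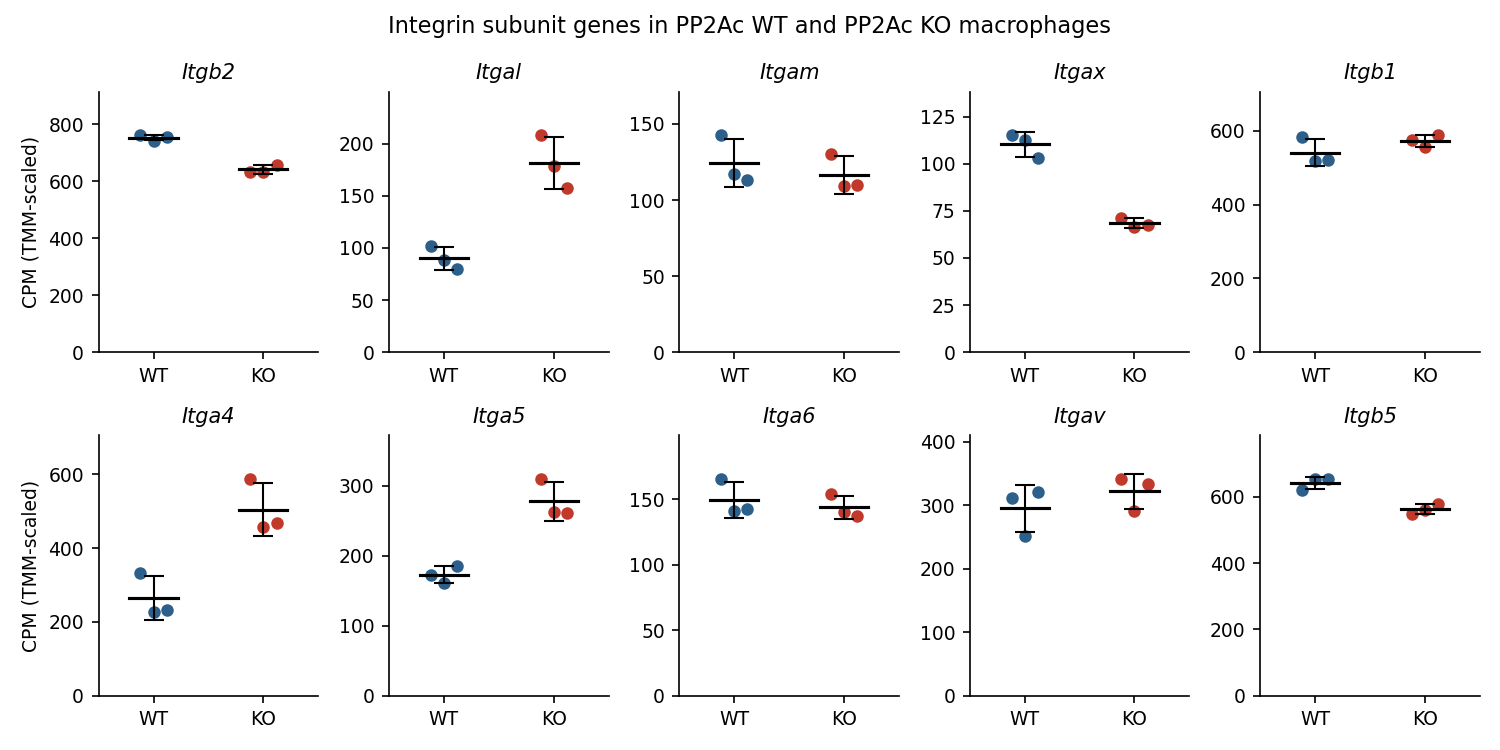
CPM, scaled by TMM, of the 10 integrin subunit genes, with 1 point for each of the 3 libraries per genotype (blue, PP2Ac WT; red, PP2Ac KO), the mean as a line and the SD as error bars, on axes that start at 0. Itgal, Itga4 and Itga5 were above every WT library in all KO libraries, Itgax, Itgb2 and Itgb5 were below, and the other 4 overlapped.

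Among the leukocyte integrins the α subunits moved in opposite directions. Itgal, which encodes the αL chain of LFA-1, lies on chromosome 7 from 127296260 to 127335138 in GRCm38. It had 208.1, 178.6 and 157.9 CPM in the PP2Ac KO libraries and 102.1, 88.0 and 79.7 CPM in the PP2Ac WT libraries. The lowest KO library was above the highest WT library, and Itgal was 2.02-fold higher in PP2Ac KO (log2 fold change 1.01, SE 0.12, adjusted p = 2.79e-04). T, NK and B cells also use LFA-1. Their 7 markers summed to 0.825 to 1.46 CPM across PP2Ac KO and 0.501 to 0.644 CPM across PP2Ac WT, higher in PP2Ac KO without overlap, with Cd8a at 0 and Cd3e at 0 to 5 counts per library. Their part in the rise of Itgal was not tested.

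Itgax, which encodes αX (CD11c) and is found on macrophages and dendritic cells, lies further along the same chromosome, from 128129547 to 128150657. Its CPM were 71.4, 66.3 and 67.5 in PP2Ac KO and 115.1, 112.8 and 103.0 in PP2Ac WT. All KO libraries were low and close together, and Itgax was 1.61-fold lower in PP2Ac KO (log2 fold change -0.69, SE 0.07, adjusted p = 1.27e-04). Dendritic cell markers had a summed level of 2.30 to 3.32 CPM across PP2Ac KO and 1.60 to 2.42 CPM across PP2Ac WT. Of the 7, 4 were tested, of which Clec9a and Siglech rose, while Cd209a, too scarce to be tested, had 7, 0 and 5 counts in PP2Ac KO and 18, 7 and 15 counts in PP2Ac WT. Their part in the fall of Itgax was not tested.

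Itgam, which encodes αM (CD11b), lies between them from 128062640 to 128118491. It had 130.5, 109.0 and 109.6 CPM across PP2Ac KO and 142.5, 117.1 and 113.2 CPM across PP2Ac WT. The genotypes overlapped, and the log2 fold change of -0.09 (SE 0.10, adjusted p = 0.516) had a 95% confidence interval from -0.33 to 0.14. In GENCODE M21, 68.7% of Itgam exon bases also belong to Gm49368, a gene on the same strand that had 0 to 3 counts in each library, so reads from the shared exons may have been set aside as ambiguous when the table was made. The level of Itgam is therefore uncertain, while the comparison between genotypes rests on the same exons in each.

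Itgad, which encodes αD and is the last gene of this cluster, had 60 to 109 counts per library with a log2 fold change of 0.20 (SE 0.20, adjusted p = 0.457). The 4 α genes span 928 kb on the forward strand, with gaps of 728 kb, 11.1 kb and 3.72 kb between neighbours. Over this stretch the first gene rose, the second was not called, the third fell and the fourth was not called.

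Itgb2, which encodes the β2 chain (CD18) that all 4 share, lies on chromosome 10 from 77530252 to 77565708. Its CPM were 634.3, 632.5 and 659.1 in PP2Ac KO and 761.8, 743.6 and 756.2 in PP2Ac WT. The groups were tight and did not overlap, and the fall was small, at 1.17-fold (log2 fold change -0.23, SE 0.06, adjusted p = 0.0166). It was no longer called without PP2Ac KO replicate 2 (adjusted p = 0.0761) or without PP2Ac WT replicate 2 (adjusted p = 0.0546).

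Because the αL, αM and αX genes share 1 partner, their balance was compared within each library. The ratio of Itgal to Itgax in CPM per kb of exon was 2.13, 1.97 and 1.71 in PP2Ac KO and 0.649, 0.571 and 0.566 in PP2Ac WT. Itgal was thus the higher of the pair in every KO library and the lower in every WT library, and the mean ratio was 3.26-fold higher in PP2Ac KO. The mean ratio of Itgal to Itgam was 1.19 ± 0.0791 (SD, n = 3) across PP2Ac KO and 0.554 ± 0.0189 in PP2Ac WT, a 2.15-fold difference. For Itgam to Itgax it was 1.62 ± 0.108 in PP2Ac KO and 1.08 ± 0.0976 in PP2Ac WT. None of these ratios overlapped between genotypes, and each had p = 0.1 in a two-sided exact permutation test, the smallest p that 3 libraries against 3 can give (0.109 adjusted over the 12 ratios and shares compared). Each ratio holds Itgal or Itgax, which were called as single genes, so the separation is no independent result.

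Of the summed α genes of β2 per kb, Itgal made up 42.1% ± 2.02 (SD, n = 3) across PP2Ac KO and 22.1% ± 0.685 in PP2Ac WT. The share of Itgax was 21.8% ± 1.45 in PP2Ac KO and 37.3% ± 1.90 in PP2Ac WT, and that of Itgam was 35.4% ± 0.857 and 39.9% ± 1.55. The summed α genes stood to Itgb2 as 0.312 ± 0.0362 in PP2Ac KO and 0.250 ± 0.0224 in PP2Ac WT. Each of these had the same exact permutation p = 0.1 and no overlap, and the p for the ratio to Itgb2 was 0.2 in 4 of the 6 comparisons that left out 1 library. The share of Itgad, 0.759% ± 0.173 in PP2Ac KO and 0.712% ± 0.208 in PP2Ac WT, overlapped (exact permutation p = 0.6). The shares depend on the length used for Itgam. With only its exon bases outside Gm49368, Itgam made up 63.5% in PP2Ac KO and 67.9% in PP2Ac WT, and the exact permutation p for the ratio to Itgb2 was 0.2.

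**Figure D2:**
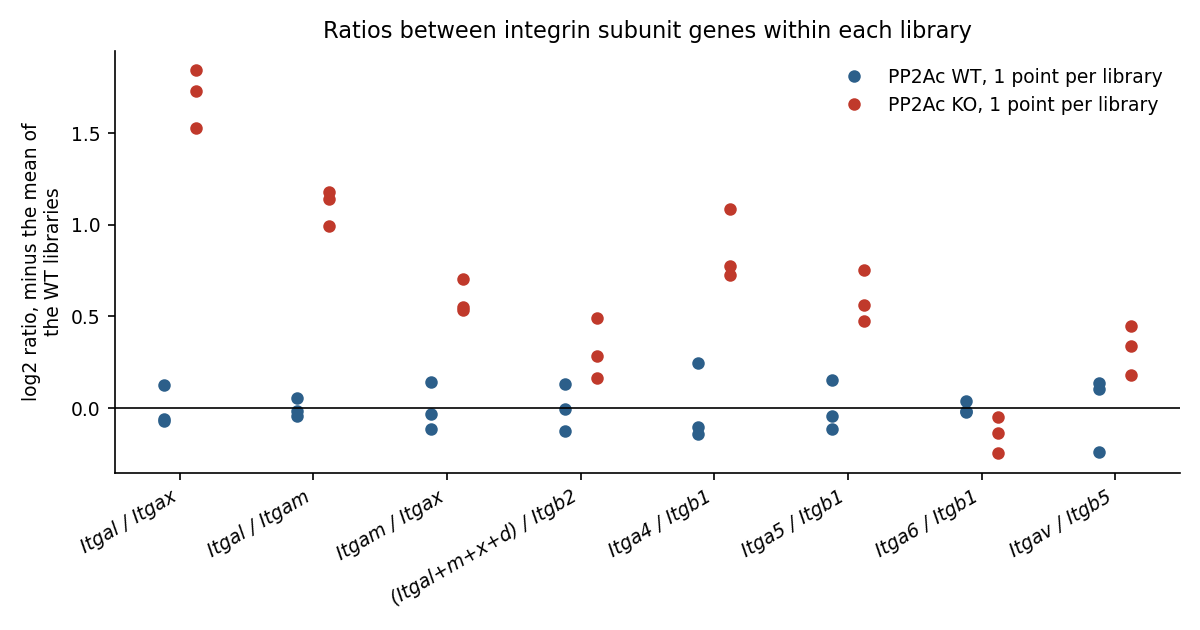
Log2 ratios of CPM per kb between integrin subunit genes within each library, less the mean of the PP2Ac WT libraries, with 1 point per library (blue, PP2Ac WT; red, PP2Ac KO). The ratio of Itgal to Itgax had the largest shift, 3.26-fold in the means. For all 8 ratios the KO libraries lay outside the WT range, where 50.9% of single genes tested had such a separation. All but the ratio of Itga6 to Itgb1 hold a gene that was itself called, so their separation is no independent result. The share of Itgad, not drawn here, overlapped between genotypes.

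Of the β1 integrin genes, 2 α genes rose while the β gene was not called. Itga4, which encodes the α4 chain of VLA-4, lies on chromosome 2 from 79255426 to 79333123. It had 587.6, 458.1 and 467.4 CPM across PP2Ac KO and 332.3, 225.8 and 233.2 CPM across PP2Ac WT. Replicate 1 was the highest of each genotype, and the groups did not overlap. Itga4 was 1.91-fold higher in PP2Ac KO (log2 fold change 0.94, SE 0.16, adjusted p = 0.00153). Cerkl, on the opposite strand, shares 8.04% of its exon bases.

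Itga5, which encodes the α5 chain of the fibronectin receptor, lies on the reverse strand of chromosome 15 from 103344286 to 103366763. Its CPM were 310.0, 262.3 and 261.1 in PP2Ac KO and 172.7, 160.8 and 185.2 in PP2Ac WT. Every KO library was above every WT library, and Itga5 was 1.61-fold higher in PP2Ac KO (log2 fold change 0.68, SE 0.09, adjusted p = 4.48e-04).

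Itgb1, on chromosome 8 from 128685654 to 128733200, encodes the β1 chain shared by many α subunits. It had 576.0, 556.1 and 587.7 CPM across PP2Ac KO and 583.4, 517.6 and 521.0 CPM across PP2Ac WT. The highest WT library lay within the KO range. The log2 fold change was 0.08 (SE 0.07, adjusted p = 0.393), with a 95% confidence interval from -0.08 to 0.25. Itga6, which encodes the α6 chain of laminin receptors and lies on chromosome 2 from 71745616 to 71858416, had 153.9, 140.3 and 137.0 CPM across PP2Ac KO and 165.5, 141.0 and 142.6 CPM across PP2Ac WT. Its log2 fold change was -0.06 (SE 0.08, adjusted p = 0.610), with a 95% confidence interval from -0.24 to 0.13. For Itgam and Itga6, the sign of the estimate turned to 0.02 on the log2 scale when PP2Ac WT replicate 1 was left out. Compared by replicate number, both genes were lower in the PP2Ac KO library of each of the 3 pairs, and neither was called with the block (adjusted p = 0.0825 for Itgam and 0.279 for Itga6).

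Relative to Itgb1 in the same library, Itga4 per kb was 0.257 ± 0.0357 (SD, n = 3) across PP2Ac KO and 0.141 ± 0.0216 in PP2Ac WT, a 1.82-fold difference. For Itga5 the ratio to Itgb1 was 0.401 ± 0.0400 in PP2Ac KO and 0.265 ± 0.0257 in PP2Ac WT, a 1.51-fold difference. For Itga6 it was 0.113 ± 0.00774 and 0.125 ± 0.00278, so the KO libraries lay on the other side of the WT range. The exact permutation p was 0.1 for each.

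Itgav, on chromosome 2 from 83724397 to 83806916, encodes αv, which pairs with β1, β3, β5, β6 and β8. It had 341.6, 290.3 and 333.3 CPM across PP2Ac KO and 312.0, 252.3 and 320.9 CPM across PP2Ac WT. Replicate 2 was the lowest library of each genotype. Without the replicate block the log2 fold change was 0.12 (SE 0.10, adjusted p = 0.380), and with it Itgav rose (log2 fold change 0.13, adjusted p = 0.0313). Gm13684, on the opposite strand, shares 5.9% of its exon bases.

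Itgb5, on chromosome 16 from 33829665 to 33949338, encodes the β5 chain. It had 548.5, 561.3 and 577.7 CPM across PP2Ac KO and 621.1, 652.3 and 654.2 CPM across PP2Ac WT. The groups did not overlap, and Itgb5 was 1.14-fold lower in PP2Ac KO (log2 fold change -0.19, SE 0.06, adjusted p = 0.0406). This call was near the threshold. It was lost with RLE scaling (adjusted p = 0.0576), without the filter on low counts (0.0611) and in 5 of the 6 fits that left out 1 library (up to 0.138), all but the one without PP2Ac WT replicate 1. The ratio of Itgav to Itgb5 per kb was 0.189 ± 0.0175 (SD, n = 3) across PP2Ac KO and 0.152 ± 0.0210 in PP2Ac WT, without overlap (exact permutation p = 0.1).

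The levels of the subunits were set in order by CPM per kb of exon. In PP2Ac KO the β genes led, with Itgb2 at 210.4 ± 4.87 (SD, n = 3), Itgb5 at 158.3 ± 4.12 and Itgb1 at 140.5 ± 3.91. The α genes followed, from Itga5 at 56.3 ± 5.66 and Itga4 at 36.1 ± 5.17 to Itga6 at 15.9 ± 0.998 and Itgax at 14.2 ± 0.550. Between these stood Itgav (30.0 ± 2.56), Itgal (27.6 ± 3.84) and Itgam (23.2 ± 2.44). The libraries of Itgav overlapped those of Itgal, and those of Itgal overlapped those of Itgam. Within each PP2Ac KO library Itgal was nonetheless above Itgam. In PP2Ac WT the order of the β genes was the same, with Itgb2 at 247.0 ± 3.05, Itgb5 at 180.9 ± 5.23 and Itgb1 at 132.5 ± 9.08. Itga5 again led the α genes at 35.1 ± 2.48.

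Below Itga5 in PP2Ac WT, Itgav (27.5 ± 3.47), Itgam (24.7 ± 3.16), Itgax (23.0 ± 1.34), Itga4 (18.9 ± 4.25) and Itga6 (16.6 ± 1.52) each overlapped with the next, and Itgal was the lowest at 13.7 ± 1.73. Itgal thus stood in place 10 in PP2Ac WT and in place 7 in PP2Ac KO, and Itgax in place 7 and in place 10. The first 3 places held for 2 other ways of measuring length, and those of the α genes did not. By the longest coding transcript, Itgav (41.8 CPM per kb) stood above Itga5 (39.5) in PP2Ac WT, and Itga6 moved to place 6 there. By its exon bases outside Gm49368, Itgam had 73.9 CPM per kb in PP2Ac KO and 78.9 in PP2Ac WT and led the α genes. By mean CPM, the members lay between the percentiles 83.8 (Itgax) and 98.8 (Itgb2) of all genes tested.

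The genes most like a member were found by the distance between 6 log2 CPM values, each centred on the mean of the gene. For Itgal these were Pim1 (distance 0.1097), which encodes a serine/threonine kinase, Phactr1 (0.1174) and Tbc1d13 (0.1255). For Itga4 they were Crybg1 (0.05859), Aff1 (0.1071) and Fzd5 (0.1082), and for Itgax they were Ceacam1 (0.07905), an adhesion molecule, Spire1 (0.1034) and Ankrd33b (0.1041). The likeness is over 6 libraries, in which genotype is the main difference, and none of these genes is another integrin.

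Of the 17 other integrin genes of the mouse, 13 were tested, 2 of which rose (15.4%) and 4 fell (30.8%). Of all genes tested, 18.1% rose and 19.0% fell. Itga9 and Itgb7 rose. They encode subunits of α9β1 and of α4β7, in which β7 pairs with the product of Itga4. Itga9 had 117.6 ± 6.80 CPM (SD, n = 3) across PP2Ac KO and 86.7 ± 12.1 CPM across PP2Ac WT (log2 fold change 0.44, SE 0.10, adjusted p = 0.00693). Itgb7 had 8.11 ± 0.766 CPM and 5.31 ± 1.05 CPM (log2 fold change 0.61, SE 0.15, adjusted p = 0.0107).

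Itgb3 and Itga2b, which together encode the platelet fibrinogen receptor, with β3 also a partner of αv, both fell. Itgb3 had 20.2 ± 2.84 CPM across PP2Ac KO and 31.5 ± 2.05 CPM across PP2Ac WT (log2 fold change -0.64, SE 0.10, adjusted p = 0.00116). Itga2b had 3.64 ± 1.06 CPM and 5.75 ± 0.893 CPM (log2 fold change -0.65, SE 0.20, adjusted p = 0.0285). Megakaryocyte and platelet markers had a summed level of 1.76 to 2.21 CPM across PP2Ac KO and 3.14 to 4.05 CPM across PP2Ac WT. Of the 3 tested, 2 were lower (Gp5 and Ppbp), where 19.0% of all genes tested were, and Gp1bb was at 0 in all libraries. The part of megakaryocytes and platelets in the fall of Itgb3 and Itga2b was not tested.

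The remaining called genes were scarce. Itga11, a collagen receptor subunit of mesenchymal cells, had 9, 12 and 5 counts in PP2Ac KO and 39, 40 and 24 counts in PP2Ac WT (log2 fold change -1.75, SE 0.38, adjusted p = 0.00566). Itga3, a laminin receptor subunit, had 8, 9 and 12 counts in PP2Ac KO and 40, 20 and 15 counts in PP2Ac WT. Its call (log2 fold change -1.14, adjusted p = 0.0455) was lost with DESeq2, with limma-voom, with RLE scaling and in 5 of the 6 fits that left out 1 library. Itga8 had a log2 fold change of -1.17 (adjusted p = 0.0620), and it was called lower with the replicate block (adjusted p = 0.0173), with upper-quartile scaling (0.0444), without the filter on low counts (0.0333), without PP2Ac KO replicate 1 (0.0446) and without PP2Ac WT replicate 3 (0.0232). With the block, 6 of the 13 fell, where 26.4% of all genes tested did. Without PP2Ac KO replicate 2 or 3 or PP2Ac WT replicate 2, the count that fell was 2. Fibroblast markers fell in the same libraries, and their part in these falls was not tested.

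**Figure D3:**
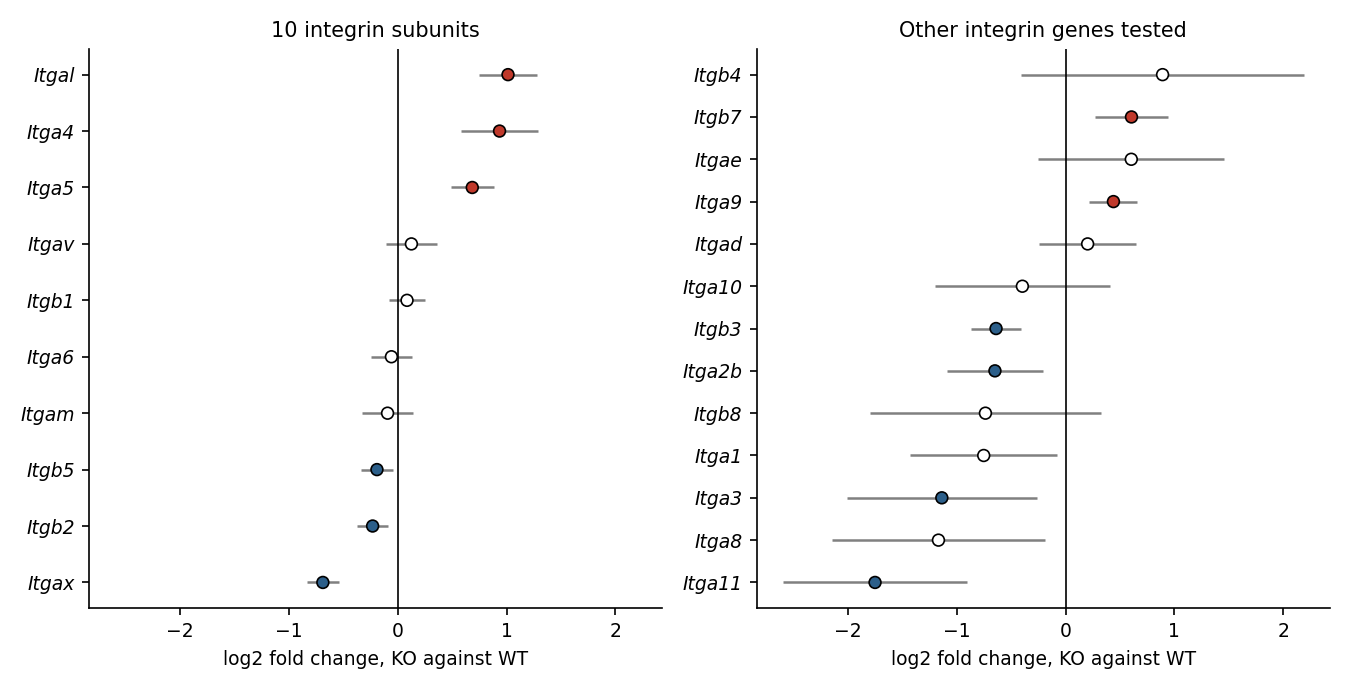
Log2 fold changes, PP2Ac KO against PP2Ac WT, with 95% confidence intervals for the 10 integrin subunit genes (left) and the 13 other integrin genes tested (right). Filled points had an adjusted p under 0.05 (red, higher in KO; blue, lower), and the members ran from -0.69 for Itgax to 1.01 for Itgal.

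Of 27 genes whose products activate integrins or bind their tails, 26 were tested, with 8 higher and 6 lower in PP2Ac KO and a median log2 fold change of 0.00. These are 30.8% and 23.1%, against 18.1% and 19.0% of all genes tested. Those that rose were Zyx, Rap1b, Ptk2, Ptk2b, Src, Dok1, Parvg and Ilk, with log2 fold changes from 0.19 to 0.73. Rap1b, the small GTPase that recruits talin to integrins, had 619.7 ± 29.3 CPM (SD, n = 3) across PP2Ac KO and 435.2 ± 48.4 CPM across PP2Ac WT (log2 fold change 0.51, SE 0.09, adjusted p = 0.00197). Zyx, which encodes the focal adhesion protein zyxin, had 460.1 ± 22.1 CPM and 277.2 ± 25.6 CPM (log2 fold change 0.73, SE 0.08, adjusted p = 2.32e-04).

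The talin and kindlin genes that serve leukocytes were abundant. Tln1, the main talin gene, had 618.1 ± 114 CPM across PP2Ac KO and 541.8 ± 68.1 CPM across PP2Ac WT (log2 fold change 0.19, adjusted p = 0.302). It rose with the replicate block (adjusted p = 0.00766). Fermt3, which encodes the kindlin of blood cells, had 237.9 ± 10.5 CPM and 260.8 ± 19.8 CPM (log2 fold change -0.13, adjusted p = 0.202), and it fell with the block (adjusted p = 0.0241). Of all 26, 11 rose and 11 fell with the block, where 24.4% and 26.4% of all genes tested did. Without PP2Ac WT replicate 2, 5 rose.

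The largest falls were those of Fermt2, Parva and Tln2, all under 4 CPM in every library. Fermt2, the widely expressed kindlin, had 0.630 ± 0.132 CPM across PP2Ac KO and 2.53 ± 0.893 CPM across PP2Ac WT (log2 fold change -2.02, SE 0.30, adjusted p = 8.06e-04). Parva had a log2 fold change of -1.65 (adjusted p = 5.39e-04) and Tln2 of -1.26 (adjusted p = 0.00328). Vcl, Bcar1 and Tgfb1i1 fell as well. Of the 7 fibroblast markers, 6 were tested and all 6 fell, where 19.0% of all genes tested did. The falls ran from Pdgfrb (log2 fold change -1.15) to Col1a1 (-2.10), while Lum had 0 to 6 counts. The part of fibroblasts in the falls of Fermt2, Parva and Tln2 was not tested.

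Of 31 ligands of these integrins, 22 were tested. In PP2Ac KO 5 rose (22.7%) and 11 fell (50%), against 18.1% and 19.0% of all genes tested. When at least 10 counts were required in every library, 5 rose and 8 fell. The median log2 fold change was -0.49 against -0.02 over all genes tested. The 5 that rose were cell-surface or complement ligands, and 8 of the 11 that fell encode fibronectin, laminins, tenascin C or nidogen. C3, the complement component whose cleaved form is bound by αMβ2 and αXβ2, had 621.4, 446.5 and 389.8 CPM across PP2Ac KO and 171.2, 108.0 and 79.6 CPM across PP2Ac WT. It was 4.06-fold higher in PP2Ac KO (log2 fold change 2.02, SE 0.27, adjusted p = 4.90e-04).

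Of the genes tested that encode ligands of αLβ2, Icam1, Icam2 and F11r rose, and Icam5 had a log2 fold change of 0.09 (adjusted p = 0.816). Icam1 had 284.1, 242.2 and 238.3 CPM across PP2Ac KO and 100.3, 89.4 and 94.2 CPM across PP2Ac WT, a 2.69-fold difference (log2 fold change 1.43, SE 0.09, adjusted p = 3.90e-05). F11r, which encodes JAM-A, another ligand of LFA-1, had 27.9 ± 4.19 CPM (SD, n = 3) across PP2Ac KO and 9.62 ± 2.22 CPM across PP2Ac WT (log2 fold change 1.53, SE 0.17, adjusted p = 2.07e-04). Icam2 had 3.32 ± 0.480 CPM and 1.59 ± 0.303 CPM (log2 fold change 1.05, SE 0.18, adjusted p = 0.00188). Vcam1, the cell-surface ligand of the Itga4 product, had 7.26 ± 0.692 CPM across PP2Ac KO and 4.96 ± 0.432 CPM across PP2Ac WT (log2 fold change 0.55, SE 0.11, adjusted p = 0.00450). Icam2 and F11r are also made by endothelial cells. Of endothelial markers, Cdh5 (log2 fold change 1.40) and Kdr (1.09) rose, and their list summed to 192.3 to 242.8 CPM across PP2Ac KO and 80.3 to 131.0 CPM across PP2Ac WT. Kdr made up most of the sum, with 229.6, 182.5 and 184.2 CPM across PP2Ac KO and 125.0, 76.5 and 78.2 CPM across PP2Ac WT. Cdh5 had 10.5 ± 2.08 CPM and 3.95 ± 1.65 CPM. Tek had 0 to 4, Emcn 0 to 6 and Tie1 3 to 13 counts per library. The part of endothelial cells in the rise of Icam2 and F11r was not tested.

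Fn1, which encodes fibronectin, the matrix ligand of both α5β1 and α4β1, fell while Itga5 and Itga4 rose. It had 6.34, 5.15 and 4.22 CPM across PP2Ac KO and 16.1, 14.1 and 20.1 CPM across PP2Ac WT (log2 fold change -1.68, SE 0.17, adjusted p = 1.45e-04). Laminin genes, whose products are bound by α6β1, fell in 5 of the 6 tested, where 19.0% of all genes tested fell. These were Lama4, Lama5, Lamb1, Lamb2 and Lamc1, with log2 fold changes from -1.80 to -0.53. Lama4 had 14, 13 and 6 counts in PP2Ac KO and 56, 50 and 29 in PP2Ac WT. Lama5 had 9, 8 and 11 counts in PP2Ac KO and 24, 26 and 30 in PP2Ac WT. Lamc1, the most abundant, had 39.0 ± 4.21 CPM across PP2Ac KO and 60.7 ± 4.80 CPM across PP2Ac WT. Tnc (log2 fold change -1.50, adjusted p = 7.30e-04), Nid1 (-1.42, adjusted p = 0.00378) and Jam2 (-1.76, adjusted p = 0.00374) fell too. Jam2 was scarce, with 13, 7 and 13 counts in PP2Ac KO and 58, 48 and 24 in PP2Ac WT. Fibroblasts are a common source of fibronectin, laminins, tenascin C and nidogen. The fibroblast markers were lower in the same libraries, by 1.15 to 2.10 on the log2 scale. Their part in the falls was not tested.

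Mfge8, which encodes the bridging protein that αvβ5 and αvβ3 bind on apoptotic cells, was abundant and fell with Itgb5 and Itgb3. It had 416.5, 438.6 and 434.2 CPM across PP2Ac KO and 657.2, 740.3 and 700.7 CPM across PP2Ac WT, a 1.63-fold difference without overlap (log2 fold change -0.70, SE 0.07, adjusted p = 1.45e-04). Edil3, another ligand of this kind, fell by 0.44 on the log2 scale (adjusted p = 0.0114). Thbs1, at 3325 ± 305 CPM across PP2Ac KO and 2935 ± 394 CPM across PP2Ac WT, and Spp1, at 982.8 ± 73.2 CPM and 882.7 ± 85.0 CPM, were the ligand genes of highest level and overlapped between genotypes. Both rose with the replicate block (adjusted p = 0.00376 for Thbs1 and 0.0212 for Spp1), as did Tgfb3 (adjusted p = 0.0136), so that 8 ligand genes rose there. With the block, 24.4% of all genes tested rose. Vtn, which encodes vitronectin, and Fgb and Fgg, which encode fibrinogen chains, had 0 counts in every library, which allows up to 0.0909 CPM in the shallowest.

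**Figure D4:**
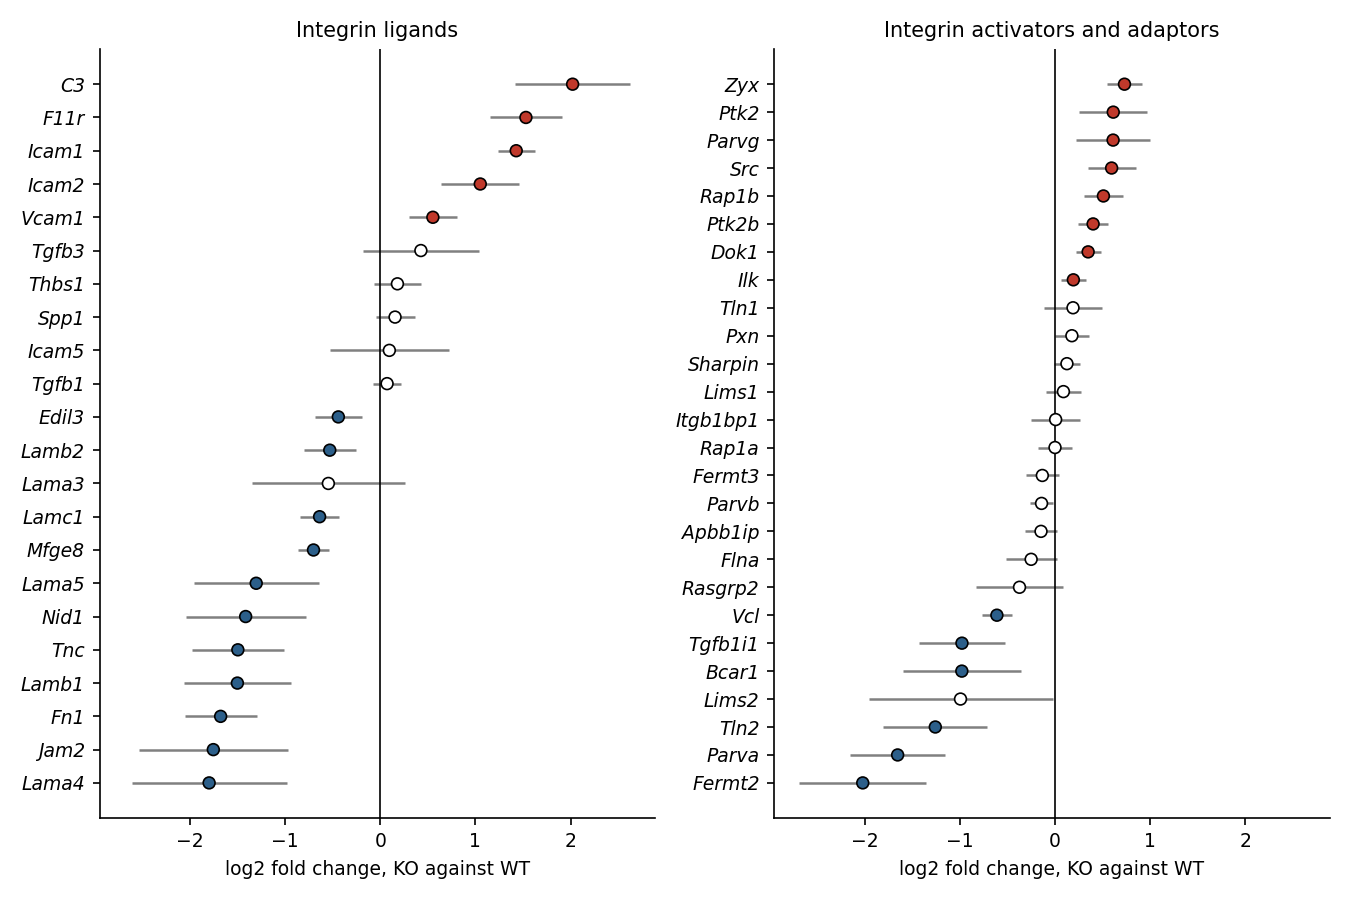
Log2 fold changes, PP2Ac KO against PP2Ac WT, with 95% confidence intervals for the 22 integrin ligand genes tested (left) and the 26 genes of integrin activators and adaptors tested (right). Filled points had an adjusted p under 0.05 (red, higher in KO; blue, lower), and C3 (2.02) and Fermt2 (-2.02) were at the ends.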

How the data were processed

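Poly(A) RNA of 6 BMDM libraries (3 per genotype) was sequenced paired-end from a directional kit. The authors deposited 1 table of whole-number counts per gene without normalization (build mm10). The submitters' processing notes name fastp 0.20.0, STAR 2.7.1a, HTSeq 0.11.2, kallisto 0.46.1, edgeR 3.34.0 and limma 3.48.3 without roles, and the strand setting and annotation release are not given in the sources used here. Reads on exons shared by genes may have been dropped or split.

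Counts were filtered with filterByExpr (minimum count 10, minimum total 15), scaled by TMM and tested in edgeR 4.0.16 (R 4.3.3) with glmQLFit and glmQLFTest for genotype, with Benjamini-Hochberg adjustment over 13680 genes. Fold changes carry SE or 95% intervals from this fit, and CPM carry SD. Ratios were tested with a two-sided exact permutation test over libraries (smallest p 0.1). Scripts were tested on simulated data. Depth of 35257156 to 47390899 counts sets a floor of 3 counts per library, for counting error only. Replicates of a genotype differed beyond sampling noise (chi-square per degree of freedom 8.80 to 40.9). Both genotypes carry replicate numbers 1, 2 and 3 in the labels. Deviations of same-numbered libraries from the mean of their genotype correlated at 0.289, 0.148 and 0.337 across genes. The mean of -0.129 for other pairs follows from that centring and is no separate evidence of pairing. What libraries of the same number share is not given. The fit without a block is therefore the main one, and the fit with this block stands beside calls it changes. GENCODE M21, which holds 98.4% of the symbols, gave coordinates and exon lengths, and RefSeq gave promoters (7 of 10 members had an entry).

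The members and gene lists were chosen with earlier results of these data known. All members are named, then of each list the genes past an adjusted p of 0.05 with an absolute log2 fold change over 1 (the 3 largest changes if fewer than 3), Ppp2ca, marker genes and the 3 genes nearest in profile to the 3 members that changed most. Other genes named were chosen after their values were seen. Other settings tried were RLE scaling, upper-quartile scaling, no low-count filter, at least 10 counts in every library, the block, DESeq2 1.42.0, limma-voom 3.58.1, each library left out, no exon length, and 2 other lengths added after seeing the data.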

Additional observations from a re-analysis of the deposited data

How the results depend on the processing

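The calls and directions of Itgal, Itga4, Itga5 and Itgax were kept in all alternatives, scaling, filter, tool, replicate block and each library left out included. Over all genes tested the median change (log2) stood at -0.02 with TMM, -0.00 with RLE and -0.09 with upper-quartile scaling. Of the other integrin genes, 2 fell instead of 4 when at least 10 counts were required in every library, a filter that leaves fewer genes tested. Under that filter 8 ligands fell instead of 11, since Jam2, Lama4 and Lama5 were no longer tested. With the replicate block, 11 activators and adaptors fell instead of 6 and 8 ligands rose instead of 5. Over all genes tested, 26.4% fell instead of 19.0% and 24.4% rose instead of 18.1%. The block also called Itgav and Itga8, and it changed no other call among the members and the genes that the naming rule took from the lists. Among genes named after their values were seen, it called Tln1, Fermt3, Thbs1, Spp1 and Tgfb3. With 1 library left out, the members that rose stayed at 3 and those that fell ranged from 1 to 3. Other integrin genes ranged from 2 to 2 upward and from 2 to 5 downward, activators and adaptors from 5 to 8 upward and from 5 to 8 downward, and ligands from 5 to 6 upward and from 11 to 12 downward. Integrin-associated membrane proteins stayed at 3 upward and ranged from 1 to 3 downward, with 1 without PP2Ac WT replicate 2. The difference in the share of Itgam (KO minus WT, percentage points) ranged from -5.32 to -3.79 and that in the ratio of α genes to Itgb2 from 0.0421 to 0.0777. The log2 estimates of Itgam and Itga6, which were not called, ranged from -0.19 and -0.12 (without PP2Ac KO replicate 1) to 0.0164 and 0.0203 (without PP2Ac WT replicate 1). The causes of the moves with the block were not tested. With 3 libraries per genotype, an exact test of a single ratio cannot pass 0.05, and genes under 1 CPM such as Itga3, Itga8 and Itga11 rest on few counts.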

Other observations

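Of 9 genes of membrane proteins that associate with integrins, all tested, 3 rose and 2 fell in PP2Ac KO, and 1 fell when PP2Ac WT replicate 2 was left out. The 3 and 2 are 33.3% and 22.2%, against 18.1% and 19.0% of all genes tested. Plaur, which encodes the urokinase receptor, a partner of αMβ2 and β1 integrins, had 131.3, 122.5 and 107.8 CPM across PP2Ac KO and 73.7, 71.7 and 61.6 CPM across PP2Ac WT. It was 1.75-fold higher in PP2Ac KO without overlap (log2 fold change 0.80, SE 0.09, adjusted p = 2.77e-04). Cd47, the integrin-associated protein that also signals through SIRPα, had 1201 ± 87.0 CPM (SD, n = 3) across PP2Ac KO and 828.3 ± 142 CPM across PP2Ac WT (log2 fold change 0.54, SE 0.12, adjusted p = 0.00696). Tetraspanins, which gather integrins in the membrane, were mixed. Cd82 rose (log2 fold change 0.33, SE 0.07, adjusted p = 0.00398), while Cd151 fell (-0.33, SE 0.07, adjusted p = 0.00790) and Cd9 fell (-0.26, SE 0.06, adjusted p = 0.0113). The tetraspanin gene Cd63 had a log2 fold change of -0.02 with a 95% confidence interval from -0.18 to 0.14.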
